A study of Homo sapiens with 12 samples.

Results

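BCL2 family apoptosis regulators are described here in A673 cells, a Ewing sarcoma line that carries the EWS-FLI1 fusion. The 10 genes were taken by their annotated symbols: the anti-apoptotic BCL2, BCL2L1 and MCL1, the BH3-only genes BCL2L11, PMAIP1, BBC3, BID and BMF, and the effectors BAX and BAK1. Each was measured by 1 probe set, and together they make up 10 of 18404 genes tested. RNA had been hybridised to 12 Affymetrix Gene ST arrays, 2 in each of 6 groups, and the values are log2 signals normalised by RMA, a method that gives relative levels within a gene across arrays. The groups were untreated cells at 0 h, cells in DMSO for 24 h, cells in 5 nM or in 50 nM actinomycin D for 24 h, and cells transduced with lentiviral shRNA against FLI1 or against lacZ and labelled 48 h. Both shRNA groups received virus, Polybrene and puromycin, and each shRNA was a single hairpin. All 6 groups were the same cell line. The study's methods state that cells were treated in duplicate with DMSO or 5 nM actinomycin D. For the remaining 4 groups the sources used here do not say whether the arrays came from separate cultures, so a p-value reflects array-to-array spread, some or all of which may be technical there. The fit shares its estimate of spread over all 6 groups, so this limit reaches every comparison, also that of 5 nM with DMSO. In bulk RNA, fewer cells of a kind and less RNA per cell cannot be told apart. The study reports that actinomycin D at higher concentrations repressed transcription globally. RMA brings the arrays to a common scale, so a drop in most transcripts at once would be largely hidden. Every rise or fall with the drug given below, also as a fold, is therefore relative to the remaining RNA on the array. Whether the amount of a transcript per cell rose or fell was not measured.

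Anti-apoptotic BCL2 proteins hold the effectors BAX and BAK1 in check at the mitochondrial outer membrane. BH3-only proteins bind and neutralise the anti-apoptotic members, and some of them also activate the effectors, which then open the membrane, release cytochrome c and start the caspase cascade. The balance is set partly by RNA supply, since the MCL1 protein and its transcript are known to turn over fast, and actinomycin D, which intercalates into DNA at GC steps, blocks transcription, with ribosomal RNA synthesis the most sensitive to it. The arrays measured RNA only.

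The 12 arrays had medians of 6.67 to 6.83, and the correlation over genes within a group was 0.995 to 0.998. FLI1, which the hairpin targets, read 8.63 and 8.45 on the lacZ shRNA arrays and 7.30 and 7.08 on the FLI1 shRNA arrays, a change of -1.35 (SE 0.09, limma adjusted p = 5.4e-06). All 7 measured Ewing sarcoma markers lay above the median of all genes, 7.45, with means of 8.20 to 12.2 and group medians of 9.72 to 11.2. After FLI1 shRNA 6 of the 7 fell, where 9.28% of all genes passed as lower. The marker list includes FLI1, NR0B1, NKX2-2, STEAP1 and NPY1R, which the study listed as reduced by the knock-down. That count is therefore not an independent check of the knock-down. Of the markers of other lineages, 3 of 8 epithelial, 1 of 7 blood and 1 of 8 endothelial genes lay above the median of all genes, with group medians of 6.40 to 6.77, 5.95 to 6.26 and 5.75 to 6.02. After FLI1 shRNA 2 endothelial markers, KDR and EMCN, named after their values were seen, rose by 1.85 and 1.15, and PECAM1 fell by 0.55. The part of marker changes in the values below was not tested. Both drug doses were set against the same DMSO arrays, so their values below share controls. The median of all genes differed from DMSO by 0.12 at 5 nM and by 0.10 at 50 nM. The array's median over 57 ribosomal protein genes was higher than in DMSO by 0.38 at 5 nM and by 0.15 at 50 nM. Of these 57 genes, 40 passed adjusted p under 0.05 (limma) as higher at 5 nM and 30 at 50 nM, and 0 as lower. In all genes 30.3% and 25.8% passed as higher at these doses. The centring set thus itself differed from DMSO and is not a stable reference. Values with the arrays centred on the ribosomal protein median are given below where the centring changed a call or a direction.

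At 5 nM actinomycin D, 6 of the 10 genes rose and 2 fell against DMSO. In all genes tested, 53.3% passed adjusted p under 0.05 in either direction, 30.3% as higher and 23% as lower. PMAIP1, BCL2L11 and MCL1 rose by more than 2-fold with adjusted p under 0.01, which 2.64% of all genes did, and BCL2 fell by as much, which 7.86% did. BMF, BAK1 and BBC3 rose by less, and BCL2L1 fell by less. With ribosomal protein centring 5 rose and 4 fell, where 8.55% of all genes passed as higher and 47% as lower. At 50 nM the same DMSO arrays gave 3 genes that rose and 5 that fell, where 49% of all genes passed, 25.8% as higher and 23.3% as lower. MCL1, BCL2L11 and BMF were above DMSO at 5 nM and below it at 50 nM. After FLI1 shRNA, 1 gene rose and 2 fell, where 23.9% of all genes passed, 14.6% as higher and 9.28% as lower. The members that passed were thus 8 of 10 at either dose and 3 of 10 after the knock-down, and with so few genes nothing particular to the family is read from these counts. The median log2 change of the 10 genes was 0.49 at 5 nM, -0.17 at 50 nM and -0.05 after FLI1 shRNA, against 0.12, 0.10 and -0.01 for all genes.

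**Figure D1:**
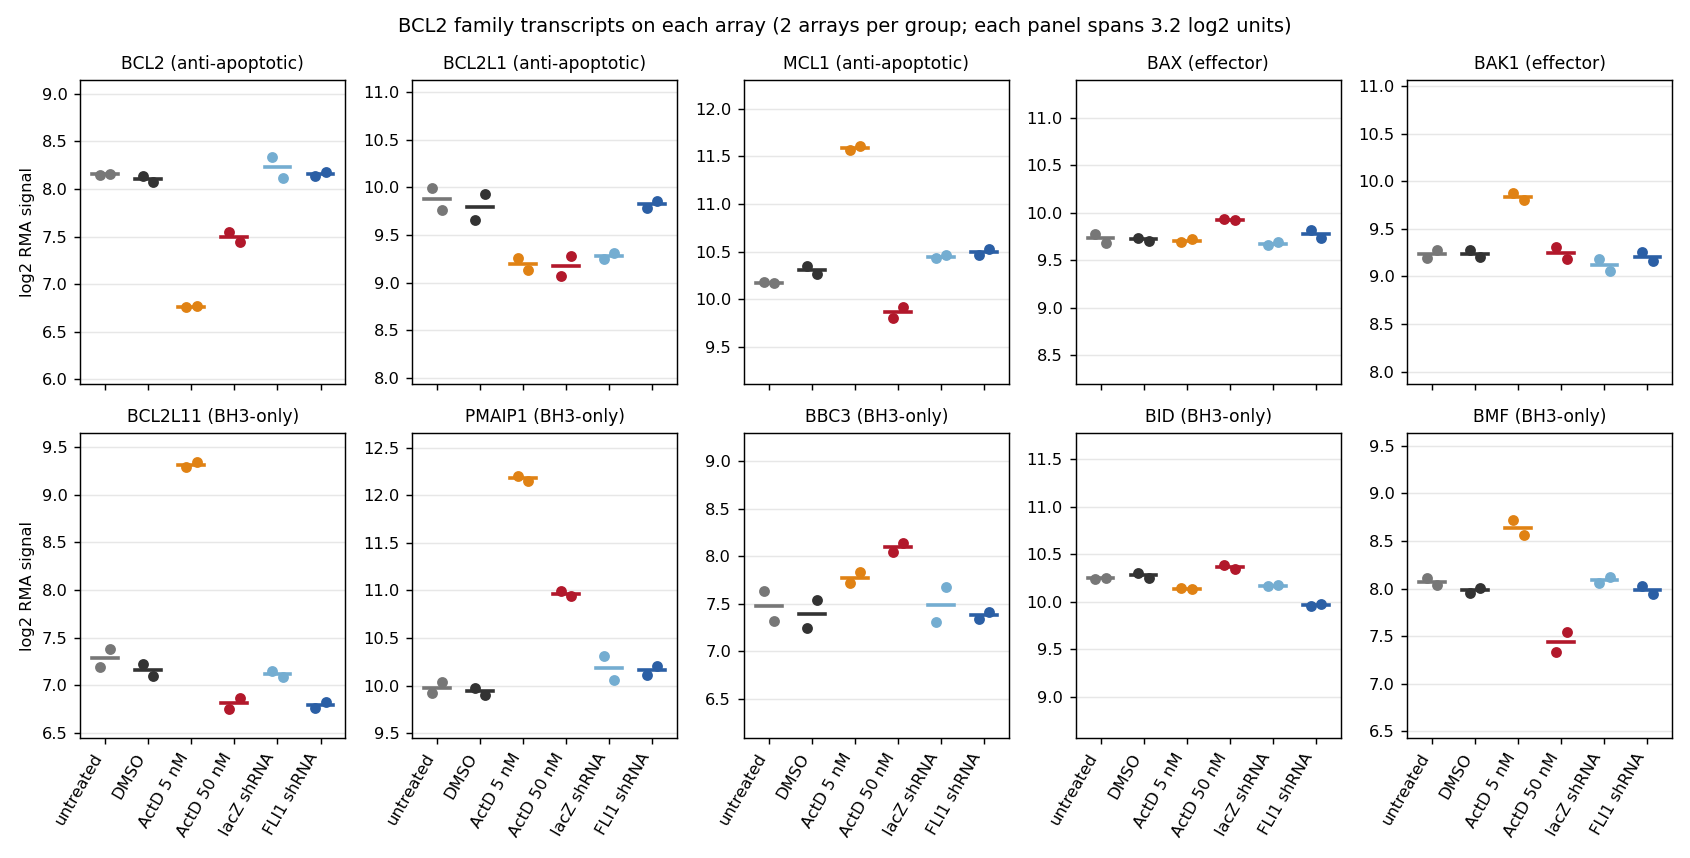
Log2 signal (RMA) of the 10 BCL2 family genes on each of the 12 arrays, by group, with every array as a point and the group mean as a short line, in panels of equal span. The 5 nM arrays of PMAIP1, BCL2L11 and MCL1 lie above all other arrays of the same gene and those of BCL2 lie below them, while BAX spans only 0.25 between its group means.

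Among the anti-apoptotic genes, BCL2 encodes the founding member, which keeps cells alive by binding BH3-only proteins and BAX. The gene lies at chr18:63123346-63320090 (GRCh38.p14) and spans 196.7 kb. BCL2 read 8.13 and 8.07 on the DMSO arrays, 6.76 and 6.77 at 5 nM and 7.55 and 7.45 at 50 nM. Both doses lay below all control arrays, and the lower dose lay below the higher. The change from DMSO was -1.34 at 5 nM (SE 0.08, adjusted p = 2.3e-07), a level 0.395 times that of DMSO, and -0.61 at 50 nM (SE 0.08, adjusted p = 1.5e-04). The 50 nM arrays were higher than the 5 nM arrays by 0.73 (SE 0.08, adjusted p = 2.1e-05). On the knock-down side BCL2 read 8.33 and 8.12 with lacZ shRNA and 8.14 and 8.18 with FLI1 shRNA, which overlapped. The difference was -0.07 (95% interval -0.25 to 0.11, adjusted p = 0.61), and it turned to 0.00 with ribosomal protein centring. In the order of group means, lacZ shRNA, FLI1 shRNA, untreated and DMSO did not differ from their neighbours beyond their spread, and 50 nM and then 5 nM followed below.

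MCL1, a short-lived anti-apoptotic protein that holds BAK1 and is the preferred partner of the PMAIP1 product, lies at chr1:150574558-150579610. MCL1 read 10.34 and 10.27 in DMSO, 11.56 and 11.61 at 5 nM and 9.80 and 9.92 at 50 nM. The 5 nM arrays were above all other arrays, and the 50 nM arrays were below all of them. The log2 change from DMSO was 1.28 at 5 nM (SE 0.07, adjusted p = 1.1e-07), a 2.43-fold rise, and -0.44 at 50 nM (SE 0.07, adjusted p = 4.9e-04). With ribosomal protein centring the 5 nM change was 0.90, under 2-fold. Between the doses the difference was -1.73 (SE 0.07, adjusted p = 2.0e-08). The lacZ shRNA arrays read 10.43 and 10.46 and the FLI1 shRNA arrays 10.46 and 10.53, a difference of 0.05 (95% interval -0.11 to 0.21, adjusted p = 0.68). Between the 5 nM and the 50 nM groups, the neighbouring means of the 4 remaining groups did not differ beyond their spread. Of the pairs further apart, untreated minus FLI1 shRNA was -0.33 (SE 0.07, adjusted p = 0.0063) and passed. Neither lacZ shRNA against untreated, 0.28 (adjusted p = 0.067), nor DMSO minus FLI1 shRNA, -0.19 (adjusted p = 0.077), passed.

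BCL2L1, whose long form BCL-XL is anti-apoptotic and whose short form is pro-apoptotic, lies at chr20:31664452-31723963. The gene-level probe set does not separate these forms. BCL2L1 read 9.66 and 9.93 in DMSO, 9.26 and 9.13 at 5 nM and 9.07 and 9.28 at 50 nM. Both doses lay below DMSO and overlapped each other. The change was -0.60 at 5 nM (SE 0.11, adjusted p = 0.0012) and -0.62 at 50 nM (SE 0.11, adjusted p = 0.0013). The doses differed by -0.02 (95% interval -0.28 to 0.23, adjusted p = 0.89). With lacZ shRNA it read 9.25 and 9.31 and with FLI1 shRNA 9.78 and 9.86, a rise of 0.54 (SE 0.11, adjusted p = 0.0060). The FLI1 shRNA arrays were near the untreated values of 9.99 and 9.76, whereas the lacZ shRNA arrays were the lower pair. Against untreated cells the lacZ shRNA group was lower, at a difference of -0.60 (adjusted p = 0.025), the only member that passed in that comparison, where 3.08% of all genes passed, 0.815% as higher and 2.26% as lower. With any single array left out of it, that value ran from -0.71 to -0.48 and passed in none (adjusted p 0.077 to 0.17). Against DMSO the lacZ shRNA group was also lower, by 0.52 (adjusted p = 0.046), and virus, puromycin and time cannot be told apart in either comparison.

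Among the BH3-only genes, BCL2L11 and PMAIP1 had the widest spread of group means of the 10 genes, 2.52 and 2.24. The 250 bases before the RefSeq start of PMAIP1, BCL2L11 and BMF are printed because these 3 were the BH3-only genes that rose at 5 nM and were lower at 50 nM than at 5 nM, and because the study asked whether actinomycin D displaces EWS-FLI1, whose family binds GGAA. Sequences run 5′ to 3′ on the strand of the gene, from RefSeq tables of GRCh38.p14, at chr18:59899746-59899995 (plus), chr2:111120664-111120913 (plus) and chr15:40108880-40109129 (minus). Capitals mark each GGAA and its reverse complement TTCC.
PMAIP1: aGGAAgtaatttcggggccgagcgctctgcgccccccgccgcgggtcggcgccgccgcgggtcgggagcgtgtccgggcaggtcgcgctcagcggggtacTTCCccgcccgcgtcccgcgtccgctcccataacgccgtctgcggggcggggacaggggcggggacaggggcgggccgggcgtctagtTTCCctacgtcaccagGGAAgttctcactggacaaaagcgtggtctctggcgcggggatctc
BCL2L11: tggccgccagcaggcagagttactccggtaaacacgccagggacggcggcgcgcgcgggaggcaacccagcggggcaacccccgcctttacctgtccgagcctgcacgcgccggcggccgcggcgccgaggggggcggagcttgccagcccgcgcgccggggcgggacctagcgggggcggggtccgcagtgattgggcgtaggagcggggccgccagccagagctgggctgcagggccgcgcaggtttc
BMF: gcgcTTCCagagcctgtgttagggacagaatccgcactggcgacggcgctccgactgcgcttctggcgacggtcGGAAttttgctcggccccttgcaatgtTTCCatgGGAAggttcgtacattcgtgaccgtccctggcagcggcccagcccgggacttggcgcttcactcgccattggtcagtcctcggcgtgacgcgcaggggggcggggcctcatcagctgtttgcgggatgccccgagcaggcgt
PMAIP1 and BMF hold 4 GGAA matches each on both strands, and BCL2L11 holds 0. Of 35116 promoter windows of the same length, 92.7% held at least 1 and the median was 3. The tandem repeat GGAAGGAA was in 3.06% of all windows and in 0 of the 9 members with a window. GC steps, a G followed by a C and the same on both strands, numbered 45 in BCL2L11, at percentile 98.3 of all windows. PMAIP1 and BMF each held 30, where the median window held 20. Of the remaining members with a window, BID held 34, BCL2 30, BAX 27, BAK1 20, BCL2L1 17 and BBC3 10. The BCL2 window lies inside the gene span given here, and those of BID and BBC3 reach into it. They are thus not wholly upstream as the printed windows are, and MCL1 had no window. The BCL2L11 window was 76.8% G or C, at percentile 93.2. A link of GC steps with the changes was not tested. PMAIP1 also holds 1 TGACGT, found in 7.10% of windows on either strand. A match is a string of letters, and no binding was measured here.

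PMAIP1 encodes NOXA, which binds MCL1 and marks it for degradation. The gene lies at chr18:59899996-59904305. PMAIP1 read 9.98 and 9.90 in DMSO, 12.20 and 12.15 at 5 nM and 10.99 and 10.94 at 50 nM. The 3 pairs did not overlap, and the 5 nM pair was the highest. The rise over DMSO was 2.24 at 5 nM (SE 0.09, adjusted p = 1.5e-08), 4.72-fold and rank 22 of 18404 among increases, and 1.03 at 50 nM (SE 0.09, adjusted p = 6.9e-06), 2.04-fold and rank 103. The 50 nM arrays were below the 5 nM arrays, at a difference of -1.21 (SE 0.09, adjusted p = 9.7e-07). PMAIP1 was the 1 member over 2-fold higher at 50 nM with adjusted p under 0.01, a rule met by 0.598% of all genes, and 0 members were over 2-fold lower, as 5.38% of all genes were. The log2 change at 50 nM was under 1, that is under 2-fold, with ribosomal protein centring (0.88), without DMSO array 2 (0.985) and without 50 nM array 1 (0.9987). With lacZ shRNA it read 10.31 and 10.06 and with FLI1 shRNA 10.11 and 10.20, a difference of -0.03 (95% interval -0.23 to 0.18, adjusted p = 0.88) that turned to 0.04 with that centring.

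BCL2L11 encodes BIM, a BH3-only protein that binds all anti-apoptotic members and can activate BAX. The gene lies at chr2:111120914-111168445. BCL2L11 read 7.23 and 7.09 in DMSO, 9.29 and 9.34 at 5 nM and 6.75 and 6.87 at 50 nM. The 5 nM arrays stood above all other arrays, and the 50 nM arrays lay below DMSO. The change was 2.16 at 5 nM (SE 0.09, adjusted p = 1.3e-08), 4.46-fold and rank 30 among increases, and -0.35 at 50 nM (SE 0.09, adjusted p = 0.0071). The fall at 50 nM did not pass without DMSO array 1 (-0.28, adjusted p = 0.063) or without 50 nM array 1 (-0.29, adjusted p = 0.053). Between the doses the difference was -2.51 (SE 0.09, adjusted p = 1.0e-08), rank 20 among decreases. In the knock-down BCL2L11 read 7.15 and 7.09 with lacZ shRNA and 6.76 and 6.83 with FLI1 shRNA, a change of -0.33 (SE 0.09, adjusted p = 0.019). With any single array left out that fall ran from -0.36 to -0.29 and did not pass (adjusted p 0.055 to 0.12). The FLI1 shRNA and 50 nM groups were neighbours at the low end and did not differ beyond their spread.

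BMF encodes a BH3-only protein that is held on dynein light chains. The gene lies at chr15:40087890-40108879. BMF read 7.96 and 8.01 in DMSO, 8.72 and 8.56 at 5 nM and 7.34 and 7.54 at 50 nM. The 5 nM pair was the highest of all groups and the 50 nM pair the lowest. It rose by 0.66 at 5 nM (SE 0.09, adjusted p = 9.4e-05; 0.28 with ribosomal protein centring), fell by 0.54 at 50 nM (SE 0.09, adjusted p = 5.7e-04) and differed by -1.20 between doses (SE 0.09, adjusted p = 8.7e-07). BMF read 8.06 and 8.13 with lacZ shRNA and 8.02 and 7.95 with FLI1 shRNA, a difference of -0.11 (95% interval -0.31 to 0.09, adjusted p = 0.43).

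BBC3 encodes PUMA, a p53-inducible BH3-only protein that binds all anti-apoptotic members. The gene lies at chr19:47220824-47232860. BBC3 read 7.25 and 7.54 in DMSO, 7.72 and 7.83 at 5 nM and 8.05 and 8.14 at 50 nM. It was highest at 50 nM, where the rise was 0.70 (SE 0.14, adjusted p = 0.0023; 0.55 with ribosomal protein centring), and its DMSO arrays were among the farthest apart of the members. The 5 nM rise of 0.38 (SE 0.14, adjusted p = 0.043) did not pass without DMSO array 1 (0.24, adjusted p = 0.29), without 5 nM array 1 (0.44, adjusted p = 0.068) or without 5 nM array 2 (0.33, adjusted p = 0.17). It was 0.01 with ribosomal protein centring (adjusted p = 0.98). The doses differed by 0.32 (95% interval 0.00 to 0.63, adjusted p = 0.097), which passed with ribosomal protein centring (0.55, adjusted p = 0.013). The lacZ shRNA arrays, at 7.31 and 7.67, enclosed the FLI1 shRNA arrays, at 7.35 and 7.41, with a difference of -0.11 (95% interval -0.43 to 0.21, adjusted p = 0.64).

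BID, which links death receptors to mitochondria once caspase-8 has cleaved it, lies at chr22:17734138-17774665. BID read 10.31 and 10.25 in DMSO, 10.15 and 10.13 at 5 nM and 10.39 and 10.34 at 50 nM. These groups lay close together, with differences from DMSO of -0.14 (adjusted p = 0.083) and 0.08 (adjusted p = 0.29). Under ribosomal protein centring the 5 nM difference was -0.52 (adjusted p = 3.9e-05) and the 50 nM difference turned to -0.06. The 50 nM arrays were higher than the 5 nM arrays by 0.22 (SE 0.06, adjusted p = 0.013), which did not pass without 50 nM array 1 (0.20, adjusted p = 0.075). With lacZ shRNA it read 10.16 and 10.18 and with FLI1 shRNA 9.95 and 9.97, a change of -0.21 (SE 0.06, adjusted p = 0.037). That fall ran from -0.22 to -0.20 with any single array left out and did not pass (adjusted p 0.097 to 0.17). It was -0.14 with ribosomal protein centring (adjusted p = 0.15).

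Of the effectors, BAK1 rose at 5 nM and BAX rose slightly at 50 nM. BAK1, which sits in the mitochondrial membrane, lies at chr6:33572552-33580276. BAK1 read 9.27 and 9.20 in DMSO, 9.87 and 9.80 at 5 nM and 9.31 and 9.18 at 50 nM. The 5 nM arrays were above all others, and the 50 nM arrays overlapped DMSO. It rose by 0.60 at 5 nM (SE 0.08, adjusted p = 9.3e-05; 0.22 with ribosomal protein centring) and differed from DMSO by 0.01 at 50 nM (95% interval -0.17 to 0.19; -0.14 with that centring). The doses differed by -0.59 (SE 0.08, adjusted p = 1.0e-04). With lacZ shRNA it read 9.19 and 9.06 and with FLI1 shRNA 9.26 and 9.16, a difference of 0.09 (95% interval -0.09 to 0.27, adjusted p = 0.50).

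BAX, which moves from the cytosol to mitochondria when activated, lies at chr19:48954875-48961798 and had the narrowest spread of group means. BAX read 9.74 and 9.70 in DMSO, 9.69 and 9.72 at 5 nM and 9.94 and 9.92 at 50 nM. At 5 nM it overlapped DMSO, with a difference of -0.01 (95% interval -0.16 to 0.14), which became -0.39 with ribosomal protein centring (adjusted p = 0.0013). At 50 nM it was higher by 0.21 (SE 0.07, adjusted p = 0.028), a call that was lost with any single array left out (adjusted p 0.071 to 0.11) and with that centring (0.06, adjusted p = 0.58). The doses differed by 0.22 (adjusted p = 0.021), which did not pass without 5 nM array 1 (0.21, adjusted p = 0.069), 50 nM array 1 (0.21, adjusted p = 0.085) or 50 nM array 2 (0.23, adjusted p = 0.062). BAX read 9.66 and 9.69 with lacZ shRNA and 9.82 and 9.73 with FLI1 shRNA, a difference of 0.10 (95% interval -0.05 to 0.25, adjusted p = 0.34).

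**Figure D2:**
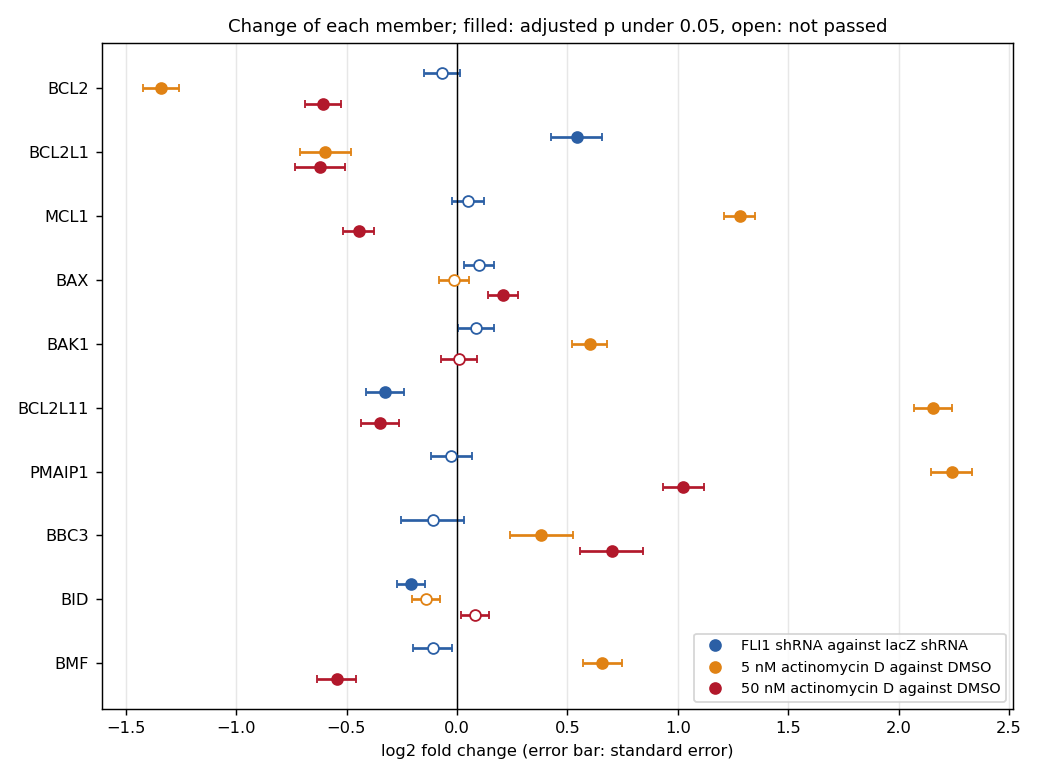
Log2 change of each of the 10 genes, with its standard error from limma as the bar and filled points where adjusted p was under 0.05, in the knock-down (FLI1 shRNA against lacZ shRNA) and at 5 nM and 50 nM actinomycin D against DMSO, both drug comparisons sharing the DMSO arrays. MCL1, BCL2L11 and BMF lie above 0 at 5 nM and below it at 50 nM. With ribosomal protein centring BCL2 and PMAIP1 in the knock-down, and BID and BAK1 at 50 nM, change sign.

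The study used the knock-down to define genes that depend on EWS-FLI1. It then asked by gene set enrichment whether 5 nM actinomycin D represses those genes together. None of the 10 genes is in the study's list of genes that passed its fold cutoff in the knock-down. Here the difference between both responses was tested for each gene, with each response set against its own controls. The knock-down was labelled 48 h and the drug 24 h, so agent and time cannot be told apart. Of the 10 genes, 2 were higher in the knock-down response than in the 5 nM response and 5 were lower, where 46.6% of all genes passed, 22.8% as higher and 23.7% as lower. BCL2 differed by 1.27 (SE 0.12, adjusted p = 7.7e-06) and BCL2L1 by 1.14 (SE 0.16, adjusted p = 2.0e-04). BCL2L11 differed by -2.48 (SE 0.12, adjusted p = 1.5e-07), PMAIP1 by -2.27 (SE 0.13, adjusted p = 3.3e-07) and MCL1 by -1.23 (SE 0.10, adjusted p = 3.5e-06). BMF differed by -0.77 (SE 0.13, adjusted p = 5.3e-04) and BAK1 by -0.51 (SE 0.11, adjusted p = 0.0039), but with ribosomal protein centring these were -0.32 (adjusted p = 0.073) and -0.07 (adjusted p = 0.65). BCL2L1 rose in the knock-down and fell with the drug. Its lacZ shRNA control was itself below untreated cells, at -0.60 (adjusted p = 0.025), a call lost with any single array left out. Untreated minus FLI1 shRNA was 0.06 (adjusted p = 0.79) and DMSO minus FLI1 shRNA was -0.03 (adjusted p = 0.92) for BCL2L1, and neither passed. BCL2L11 fell in the knock-down, in a call lost with any single array left out, and rose at 5 nM. BBC3, BID and BAX did not pass, with 95% intervals of -0.94 to -0.05, -0.26 to 0.13 and -0.10 to 0.33, and with that centring BID differed by 0.38 (adjusted p = 0.0044) and BAX by 0.56 (adjusted p = 0.0013). Between DMSO at 24 h and untreated cells at 0 h, the members differed by -0.12 to 0.13. No member passed (limma, smallest adjusted p = 0.717, 0 at unadjusted p under 0.05), where 0.00543% of all genes passed in either direction. Vehicle and time cannot be told apart in that comparison.

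The direct comparison of 50 nM with 5 nM gave 3 genes that were higher at the higher dose, BCL2, BID and BAX, and 5 that were lower, where 44.7% of all genes passed, 21.6% as higher and 23.1% as lower. With the stricter rule of over 2-fold and adjusted p under 0.01, BCL2L11, MCL1, PMAIP1 and BMF were lower at 50 nM, a rule that 6.65% of all genes met. As higher, 0 members and 4.33% of all genes met it, and with ribosomal protein centring 2 of the 4 lower genes met it. Several members shared the pattern across the 12 arrays, as a description without a test and with the 5 nM arrays carrying most of it. Pearson correlations were 0.94 for BCL2L11 with BAK1, 0.91 for BCL2L11 with MCL1, 0.90 for MCL1 with BMF and -0.97 for BCL2 with PMAIP1. In all genes, the profiles most like BCL2L11 were PNP (r = 0.999), a purine salvage enzyme, and POLR1G (r = 0.993), an RNA polymerase I subunit. For MCL1 they were ZNF622 (0.989) and CLK1 (0.987), a kinase of splicing factors. For PMAIP1 they were RPS20P27 (0.992) and RETSAT (0.989), and for BCL2 they were BAGE2 and NCKAP5 (both 0.996). RPS20P27 is a ribosomal protein pseudogene and BAGE2 belongs to a multicopy family, so these probe sets may read near-identical copies.

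The members differ in length along the genome, which the choice of genes did not use. The spans run from 4.3 kb for PMAIP1 and 5.1 kb for MCL1 to 59.5 kb for BCL2L1 and 196.7 kb for BCL2. At 5 nM PMAIP1 and MCL1 had risen and BCL2L1 and BCL2 had fallen, but BAX, at 6.9 kb, had not passed the test and BCL2L11, at 47.5 kb, had risen. Spearman's rho of span with the log2 change was -0.636 at 5 nM and -0.673 at 50 nM over the 10 genes, against -0.522 and -0.286 over 16898 protein-coding genes. Genes are not independent replicates, both doses share DMSO arrays, and no p is given. In all protein-coding genes, the median log2 change at 5 nM was 0.26 for spans under 10 kb, 0.21 for 10 to 30 kb, -0.03 for 30 to 100 kb and -0.49 over 100 kb. At 50 nM the medians were 0.21, 0.11, 0.00 and -0.03 in the same order.

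**Figure D3:**
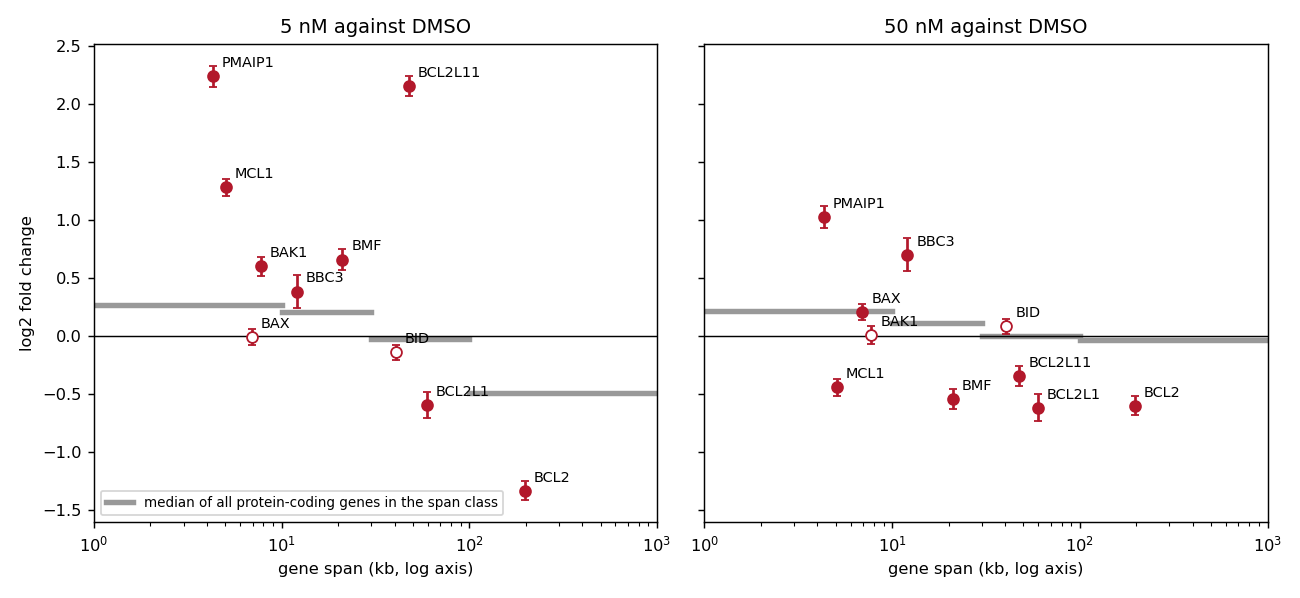
Log2 change against DMSO at 5 nM and 50 nM actinomycin D plotted against genomic span in kb (log axis) for the 10 BCL2 family genes, with bars for the standard error, open points where the test was not passed, and grey lines for the median of all protein-coding genes in each span class. PMAIP1 and MCL1, the shortest, lie high at 5 nM and BCL2, the longest, lies low, while BCL2L11, at 2.16, lies far above the grey line of its class, -0.03.

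Apoptosis genes outside the 10 were counted in 5 lists in the same comparisons. Each count stands beside the shares of all genes that passed as higher and as lower. These were 30.3% and 23% at 5 nM, 25.8% and 23.3% at 50 nM and 14.6% and 9.28% after FLI1 shRNA. The 12 measured genes of the remaining BCL2 family (13 listed) gave 5 that rose and 1 that fell at 5 nM, and 6 that rose and 0 that fell at 50 nM. Ribosomal protein centring lowers every gene alike, and under it the counts were 1 risen and 5 fallen at 5 nM and 0 risen and 2 fallen at 50 nM. In all genes the centred shares were 8.55% higher and 47% lower at 5 nM and 9.59% higher and 29.8% lower at 50 nM. BCL2L12 was higher by 0.65 at 5 nM and BIK, a BH3-only gene, by 0.50 (0.12 with that centring, not passed). BCL2L13 fell by 0.65 at that dose. BIK was dim, below the median of all genes of 7.45, at 5.39 and 5.44 in DMSO, 6.10 and 5.73 at 5 nM and 5.91 and 5.73 at 50 nM. At 50 nM BAD, a BH3-only gene that growth factor signals restrain, was higher by 0.45, BOK by 0.42 and BIK by 0.41, none of which passed after that centring. In the knock-down BNIP3, a mitophagy receptor, was the only one that rose. With that centring 3 rose, where 20.4% of all genes passed as higher and 6.65% as lower. BNIP3 read 9.52 and 9.43 with lacZ shRNA, 10.06 and 10.00 with FLI1 shRNA and 9.95 and 9.96 untreated, a rise of 0.56 over lacZ shRNA (adjusted p = 7.5e-04) that left it near the untreated level.

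Of 14 measured genes of the apoptosome, caspases and their inhibitors (17 listed), 4 rose and 6 fell at 5 nM and 3 rose and 7 fell at 50 nM, against 2 and 10, then 1 and 8, with ribosomal protein centring. BIRC6, a very large ubiquitin-conjugating inhibitor of apoptosis, fell by 2.01 at 5 nM and by 1.12 at 50 nM. APAF1, the scaffold of the apoptosome, fell by 1.04 at 5 nM, where BIRC2 rose by 0.72. At 50 nM DIABLO, which relieves caspase inhibition, fell by 0.61 and BIRC5 rose by 0.50. After FLI1 shRNA 3 rose and 2 fell, with CASP9, the initiator caspase of the mitochondrial route, higher by 0.67, BIRC2 by 0.51, and CASP2 fallen by 0.35.

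Of 12 measured death receptor genes (14 listed), 5 rose and 2 fell at 5 nM (1 and 4 with ribosomal protein centring), and 1 rose and 7 fell at 50 nM under either scaling. TNFRSF10D, a decoy receptor for TRAIL, read 10.01 and 9.92 in DMSO and 11.37 and 11.31 at 5 nM, a rise of 1.38. TNFRSF1A, the main TNF receptor, fell by 0.86 at 5 nM and by 1.44 at 50 nM. FADD, the adaptor of death receptors, fell by 1.48 at 50 nM, with its arrays at 8.13 and 8.80, and TNFRSF10A by 0.85, which was 0.36 higher than DMSO at 5 nM (-0.02 with ribosomal protein centring). Between the doses 0 of the 12 were higher at 50 nM and 9 were lower, where 21.6% of all genes passed as higher and 23.1% as lower. With that centring 1 was higher and 7 were lower, where the shares of all genes were 45.5% and 16%. After FLI1 shRNA 2 rose and 1 fell, with the death receptor FAS at -0.41 and both TNFRSF1A and CFLAR, an inhibitor of caspase-8, at 0.38.

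Of 11 measured transcription factors that act on BH3-only genes (13 listed), 6 rose and 2 fell at 5 nM (3 and 3 with ribosomal protein centring) and 4 rose and 3 fell at 50 nM (3 and 4). JUN, a stress-responsive factor, read 8.53 and 8.60 in DMSO and 9.94 and 9.95 at 5 nM, a rise of 1.38, and it was 0.73 higher at 50 nM. MYC read 11.02 and 11.00 in DMSO and 9.42 and 9.56 at 50 nM, a change of -1.52. FOXO4 rose by 1.28 at 5 nM and SMAD3 fell by 1.24 at 5 nM and by 1.20 at 50 nM. After FLI1 shRNA 2 rose and 3 fell, with E2F1 at -1.23, MYC at -0.64 and SMAD3 at 0.78.

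Of 14 measured genes that handle ubiquitin on BCL2 family proteins or partner with them at mitochondria (15 listed), 3 rose and 8 fell at 5 nM (2 and 10 with ribosomal protein centring) and 3 rose and 5 fell at 50 nM (0 and 7). USP9X, a deubiquitinase of MCL1, read 10.41 and 10.28 in DMSO and 8.21 and 8.23 at 5 nM, a change of -2.13 (adjusted p = 5.2e-09), and it fell by 0.83 at 50 nM. BTRC, a ligase component for BCL2L11 protein, fell by 2.01 and 1.15 at the respective doses, DNM1L, the mitochondrial fission GTPase, fell by 1.38 at 5 nM, and FBXW7, a ligase component for MCL1, fell by 0.66 at 50 nM. After FLI1 shRNA 4 rose and 0 fell, with BTRC higher by 0.54, DYNLL2, a dynein light chain that holds BMF protein, by 0.33 and MFN1 by 0.32. DYNLL2 read 10.48 and 10.59 untreated, 9.67 and 9.68 with lacZ shRNA and 9.94 and 10.06 with FLI1 shRNA, so it was higher than in the lacZ shRNA control, which was itself below untreated cells by a change of -0.86 (adjusted p = 0.0026), and stayed below the untreated arrays. The lists were drawn from general knowledge but with earlier results of these data known, and the counts carry no test. The median log2 change at 5 nM was 0.19 for the remaining BCL2 family, 0.00 for the apoptosome list, 0.20 for death receptors, 0.33 for transcription factors and -0.48 for the ubiquitin and mitochondrial list, against 0.12 for all genes. At 50 nM the medians were 0.32, -0.19, -0.37, 0.04 and -0.11 in that order, against 0.10. Gene span was not matched between these lists and all genes, and its part in the medians was not tested. All protein-coding genes over 100 kb had a median of -0.49 at 5 nM.

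**Figure D4:**
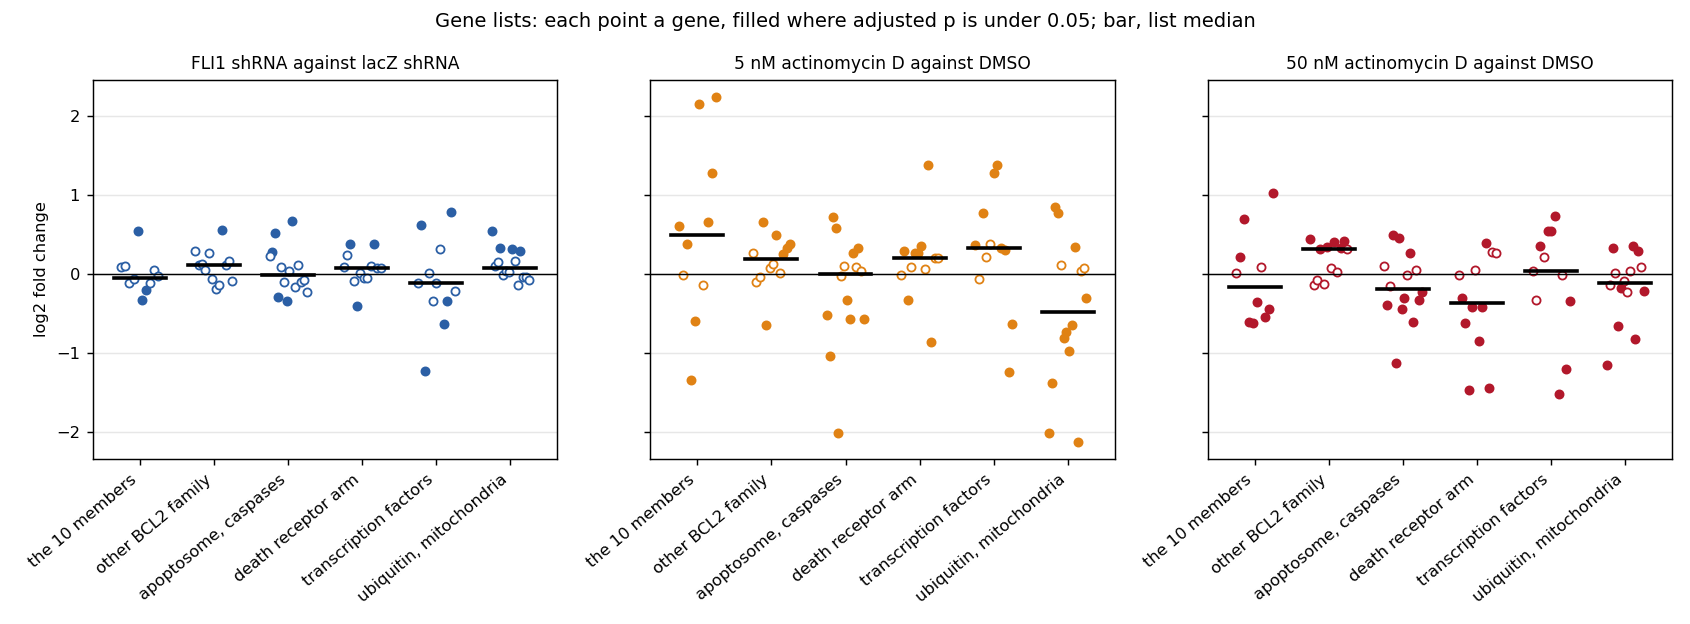
Log2 change of every measured gene in the 10 BCL2 family genes and the 5 companion lists in the knock-down and at both actinomycin D doses, with each gene as a point, filled where adjusted p was under 0.05, and the list median as a bar. The ubiquitin and mitochondrial genes lie mostly below 0 at 5 nM (median -0.48). The remaining BCL2 family has a median of 0.32 at 50 nM, where ribosomal protein centring leaves 0 of its genes risen and 2 fallen. The lists were not matched for gene span.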

How the data were processed

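Gene expression was measured on 12 arrays of A673 cells, which were grouped by their labels. The authors corrected background, normalised by RMA and converted to log2 with the affy package (no version given in the sources used here), and these deposited log2 values were analysed without further change. Value columns left unused numbered 0. Of 32321 rows, platform annotation paired 19158 with 1 symbol, 1388 with several and 11775 with none. Only the first kind was used, and the probe set with the highest mean stood for each of the 637 genes with several, which left 18404 genes.

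A mean per group was fitted over all 12 arrays with limma 3.58.1 in R 4.3.3 (6 residual and 4.45 prior degrees of freedom), and p-values were adjusted by Benjamini-Hochberg over all genes of a comparison. A gene rose or fell where adjusted p was under 0.05, and a stricter rule was over 2-fold with adjusted p under 0.01. The fit was tested on simulated data. Precision is limited by 2 arrays per group.

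The members and lists were chosen with earlier results of these data known. All 10 members are named. Of each companion list, up to 3 genes with the largest change were named per comparison among those that passed and whose arrays did not overlap, and the 2 genes most correlated with each of the 4 members of widest range. Listed genes that matched no single-symbol probe set were not analysed here. Alternatives were other array sets, a replicate block, a filter on dim genes (lowest 40 percent), all probe sets averaged, all rows, repeated quantile normalisation, centring on 57 ribosomal protein genes, a trended robust variance, DMSO with untreated as control, and each array left out. Coordinates and promoter windows came from RefSeq tables of GRCh38.p14 and were joined by symbol.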

Additional observations from a re-analysis of the deposited data

How the results depend on the processing

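Of the counts of members with adjusted p under 0.05, those of the 4 drug and knock-down comparisons and of the difference between responses stayed within 1.5 times under all alternatives that keep every array. For lacZ shRNA against untreated cells, 1 member passed, but 0 passed with only the arrays of the comparison or with all rows tested, 2 with dim genes left out, with repeated quantile normalisation or with a trended robust variance, and 5 with ribosomal protein centring. Under that centring the members over 2-fold were 0 in place of 1 at 50 nM and 2 in place of 4 between doses, and 3 in place of 4 at 5 nM. With 1 array left out, members that passed numbered 1 in each case of the knock-down (3 with all arrays), 7 to 8 at 5 nM, 6 to 7 at 50 nM, 6 to 8 between doses, 7 to 8 for the difference between responses and 0 for lacZ shRNA against untreated, and the count over 2-fold at 50 nM was 0 to 1. Reversed values, none of them called with all arrays, were with repeated quantile normalisation 0.022 for BAX at 5 nM and 0.055 for BCL2L1 between doses, and with ribosomal protein centring 0.0016 for BCL2 and 0.045 for PMAIP1 in the knock-down, -0.065 for BID and -0.14 for BAK1 at 50 nM, 0.21 for BCL2L1 between doses and 0.38 for BID in the difference between responses. Leaving out 1 array turned the sign of these uncalled values, which ran from -0.031 (without DMSO array 2) to 0.0038 (without DMSO array 1) for BAX at 5 nM, from -0.058 (without 50 nM array 1) to 0.074 (without 50 nM array 2) for BAK1 at 50 nM and from -0.13 (without 50 nM array 2) to 0.080 (without 50 nM array 1) for BCL2L1 between doses. In the knock-down they ran from -0.18 to 0.039 for BCL2, from -0.15 to 0.099 for PMAIP1 and from -0.29 to 0.073 for BBC3, with the extremes without lacZ shRNA array 1 or 2. The cause was not tested. Calls of members were also lost with only the arrays of a comparison, for BID in the knock-down (adjusted p = 0.084), BAX at 50 nM (0.064), BID (0.11) and BAX (0.11) between doses, and BCL2L1 with lacZ shRNA against untreated (0.065). With all rows tested they were lost for BID in the knock-down (0.062), BBC3 at 5 nM (0.075) and BCL2L1 with lacZ shRNA (0.071), and with repeated quantile normalisation for BBC3 at 5 nM (0.075). Over all genes, ribosomal protein centring moved the share of calls that were higher from 56.9% to 15.4% at 5 nM, from 52.5% to 24.3% at 50 nM, from 48.3% to 74% between doses and from 61.2% to 75.4% in the knock-down, and the median of all genes to -0.26 at 5 nM and -0.05 at 50 nM. With DMSO and untreated arrays as a joint control, no call of a member changed at either dose.

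The replicate numbers of the labels were also used as a block. Deviations of same-numbered arrays correlated at -0.45 to 0.34 between groups. The labels give only the number, and whether same-numbered arrays share anything more was not tested. With the replicate block BID in the knock-down no longer passed (-0.21, adjusted p = 0.053), no other member lost its call, and each count stayed within 1.5 times.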
